A study of Mus musculus with 2 samples.

Results

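The genes of the Mediator kinase module were followed here across the 11 annotated cell types of colitis-associated colon tumors (CACs), together with the ribosomal RNA-like transcript *Gm42418*. The 8 genes were *Cdk8*, *Cdk19*, *Ccnc*, *Med12*, *Med12l*, *Med13*, *Med13l* and *Gm42418*, taken by symbol from the 32291 genes of the expression table, and all 8 were present. The list was chosen by the function of the module and by the measured levels of *Cdk8* and *Gm42418* over cell types and libraries, which had stood out in these data, so those levels are given as a description. The comparison asked whether the 6 partners of *Cdk8* followed it, or whether *Cdk8* alone followed *Gm42418*.

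Mediator is the large complex that links transcription factors to RNA polymerase II. Its kinase module binds the core complex reversibly and holds a kinase, CDK8 or the paralog CDK19, its activating partner cyclin C, MED12 or MED12L, which activates the kinase through cyclin C, and MED13 or MED13L, which joins the module to the core. The module can hinder the contact of Mediator with the polymerase and also takes part in signal-dependent activation of transcription, and CDK8 has been described as an oncoprotein in colorectal cancer with active Wnt signaling. *Gm42418* is annotated as a long noncoding RNA within a ribosomal DNA sequence, and its counts are commonly read as ribosomal RNA captured by oligo-dT priming.

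CACs were induced with azoxymethane (AOM, 10 mg/kg) and dextran sodium sulfate (DSS) in mice aged 6 to 10 weeks. AOM was given 5 days ahead of each of the first 2 DSS cycles, the first 2 cycles used 2.5% DSS for 5 days and 16 days of water, the last used 2% DSS, and tumors were taken 110 days after the first AOM injection. Both groups carried floxed *Mir34a* alleles. The group labelled Mir34a_F/F kept the microRNA gene, and in the group labelled Mir34a_Mye_KO Cre recombinase under control of the lysozyme M locus (LysM-Cre), active in macrophages, neutrophils and other myeloid cells, was used to delete it. Epithelial, lymphoid and stromal cells of the Mir34a_Mye_KO group were therefore not the intended site of deletion. Each group was 1 library made from 6 to 8 CACs of 3 combined mice, and cells were not assigned to mice in the columns used here. Dead cells were removed before loading. With 1 library per genotype no difference between genotypes has a replicate check and no test was made. All intervals below are nominal 95% intervals for counting error only. Around means and ratios of means they take their width from summed UMIs and may be too narrow.

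The F/F-labelled library held 20312 cells and 147109016 UMIs (unique molecular identifiers, 1 per captured RNA molecule), with a median of 4787 UMIs per cell. The KO-labelled library held 18571 cells and 193133086 UMIs, with a median of 7716. Median depth was higher in the KO-labelled library in all 11 cell types, by 1.11-fold in endothelial cells to 5.69-fold in B cells, and so was the median mitochondrial share of UMIs. Of the 5 markers listed for each cell type, all 5 were highest in their own type in both libraries, except in dendritic cells, where 4 of 5 were, and in basophils, where 4 and 3 of 5 were. Epithelial markers were nevertheless counted in every cell type. Summed, the 5 epithelial markers stood at 20.6% to 43.4% of their epithelial level in the other cell types except erythroid cells, where they stood at 63.5% and 73.4% in the F/F- and KO-labelled libraries. Free RNA in droplets can give such counts, and its part in the levels below was not tested. The row of the primary *Mir34a* transcript held 133 UMIs in macrophages of the F/F-labelled library and 462 in those of the KO-labelled library, and the hairpin, stem-loop and mature rows held 0 in all cells of both. Whether the primary row lies outside the deleted part was not given, so these rows do not check the labels. The libraries shared 96 cell barcodes, which is 0.473% and 0.517% of their cells.

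*Gm42418* lies on chromosome 17 at 39846958 to 39848788 on the plus strand (GRCm38, GENCODE M21). On the minus strand its whole span is covered by the ribosomal RNA gene model CT010467.1, from 39846353 to 39848827, and 923 of its 1831 bases by the noncoding RNA *AY036118*, from 39847113 to 39848035. The bases at both edges of the stretch shared with *AY036118* are shown on the plus strand because they show where *Gm42418*, CT010467.1 and *AY036118* name the same bases. Capitals mark the bases that are also *AY036118* on the other strand, and the first stretch spans chr17:39847083-39847142 and the second chr17:39848006-39848065.
Gm42418, first edge: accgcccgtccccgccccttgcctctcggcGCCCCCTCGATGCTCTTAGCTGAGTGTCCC
Gm42418, second edge: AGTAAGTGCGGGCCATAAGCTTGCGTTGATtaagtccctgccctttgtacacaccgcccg

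The *Gm42418* transcript was aligned against the 141767 GENCODE transcripts to see whether it shared sequence with *Cdk8*. At 50 or more aligned bases with 90% identity, 2 other genes matched, CT010467.1 and *AY036118*, and 0 of the other 7 genes of the list did. The 30-base setting added 1 pseudogene and no gene of the list. Introns were not searched, so this says nothing about the intronic sequence of *Cdk8*, which runs over 71645 bases of chromosome 5 (146231230 to 146302874, plus strand). Whether reads in introns were counted was not given in the sources used here, so the UMIs of *Cdk8* and of the other genes may include intronic reads.

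Of the partners, *Cdk19* lies on chromosome 10 (40339564 to 40483818, plus strand), *Ccnc* on chromosome 4 (21727701 to 21759922, plus strand) and *Med12* on chromosome X (101274030 to 101297465, plus strand). *Med12l* lies on chromosome 3 (59005825 to 59318682, plus strand), *Med13* on chromosome 11 (86267033 to 86357602, minus strand) and *Med13l* on chromosome 5 (118560679 to 118765438, plus strand). The longest protein-coding transcripts of *Cdk8* and *Cdk19* aligned over 1136 bases at 77.8% identity. This stretch ended 1437 bases before the 3′ end of the *Cdk8* transcript and 4393 bases before that of *Cdk19*. A processed pseudogene, *Gm15739*, lies inside *Cdk8* on the same strand. *Med12l* holds genes on the opposite strand, among them the purinergic receptor genes *P2ry12*, *P2ry13* and *P2ry14*, and the strand setting of the counting was not given in the sources used here.

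*Cdk8*, the kinase, had UMIs in every cell type of both libraries, 213267 in all, of which 45858 and 100412 were in epithelial cells. Its level, given per 10000 UMIs of each cell and averaged over cells, ran from 2.92 in mast cells to 6.96 in epithelial cells of the F/F-labelled library. In the KO-labelled library it ran from 4.57 in mast cells to 17.4 in erythroid cells, the last from 30 cells only. Macrophages held 3.18 (4822 UMIs) and 7.50 (16118 UMIs), T cells 4.43 and 7.59, neutrophils 3.85 and 7.56, and epithelial cells 6.96 and 13.7 in the F/F- and KO-labelled libraries. In both libraries, mast cells were lowest and epithelial cells were above every immune type. Neighbours in this order were not all separate beyond counting error, since macrophages, at 3.18, and dendritic cells, at 3.16, overlapped in the F/F-labelled library, and so did mast cells, at 4.57, and B cells, at 4.61, in the KO-labelled library. In macrophages, *Cdk8* stood at 45.7% and 54.7% of its epithelial level in the F/F- and KO-labelled libraries, beside 28.2% and 30.9% for the epithelial markers. In erythroid cells these values were 65.2% and 127% for *Cdk8*, beside 63.5% and 73.4% for the markers.

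*Cdk19*, the second kinase of the module, was rarer, with 20460 UMIs, and had the pattern of *Cdk8* only in part. Macrophages held 0.384 and 0.399 per 10000 in the F/F- and KO-labelled libraries, neutrophils 0.391 and 0.411, T cells 0.749 and 0.799, and epithelial cells 0.699 and 0.621. In the F/F-labelled library its highest level was in B cells, at 0.772, where *Cdk8* was among the lower values, at 3.49. That place was not separate beyond counting error. The intervals there of B cells (0.687 to 0.864), T cells (0.702 to 0.798) and epithelial cells (0.682 to 0.716) overlapped. The highest value of *Cdk19* was 1.13 in erythroid cells of the KO-labelled library, the group that was also highest for *Cdk8*, and it rested on 12 UMIs.

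*Ccnc*, which encodes cyclin C, was highest in T cells, with 0.477 and 0.532 per 10000 in the F/F- and KO-labelled libraries, followed in the KO-labelled library by B cells at 0.319. Epithelial cells, where *Cdk8* was high, held 0.193 and 0.153, and macrophages 0.220 and 0.190. *Med12* was likewise highest in T cells, with 0.286 and 0.281, against 0.197 and 0.181 in macrophages and 0.179 and 0.163 in epithelial cells. *Med12l* was mainly seen in mast cells, with 0.392 and 0.606, and in dendritic cells, with 0.289 and 0.298, and held 0.0940 and 0.0857 in macrophages. In endothelial cells *Med12l* had 1 UMI in 116 cells of the F/F-labelled library and 0 UMIs in 107 cells of the KO-labelled library, where a floor of 3 UMIs, the limit that a count of 0 allows, is a level of 0.0389.

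*Med13* and *Med13l* were the most frequently counted partners, with 54059 and 31870 UMIs. *Med13* was higher in T cells, with 2.34 and 2.63 per 10000, and in mast cells, with 2.48 and 2.29, than in epithelial cells, with 1.40 and 1.26. *Med13l* held 1.24 and 1.47 in macrophages, 1.28 and 1.64 in dendritic cells and 0.704 and 0.663 in epithelial cells. Mast cells, which held the least *Cdk8*, thus held the most *Med12l* in both libraries, and epithelial cells, with much *Cdk8*, held the least *Med13* and *Med13l* of the 5 cell types with most cells.

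*Gm42418* had 13641939 UMIs, 1.75% to 7.27% of the UMIs of a cell type. Its level was lowest in mast cells, at 242 per 10000, and highest in erythroid cells, at 478, in the F/F-labelled library. In the KO-labelled library it ran from 373 in B cells to 1047 in erythroid cells, again from 30 cells. Epithelial cells held 384 and 826, macrophages 264 and 624, and T cells 356 and 616. As with *Cdk8*, every cell type had the higher value in the KO-labelled library.

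**Figure D1:**
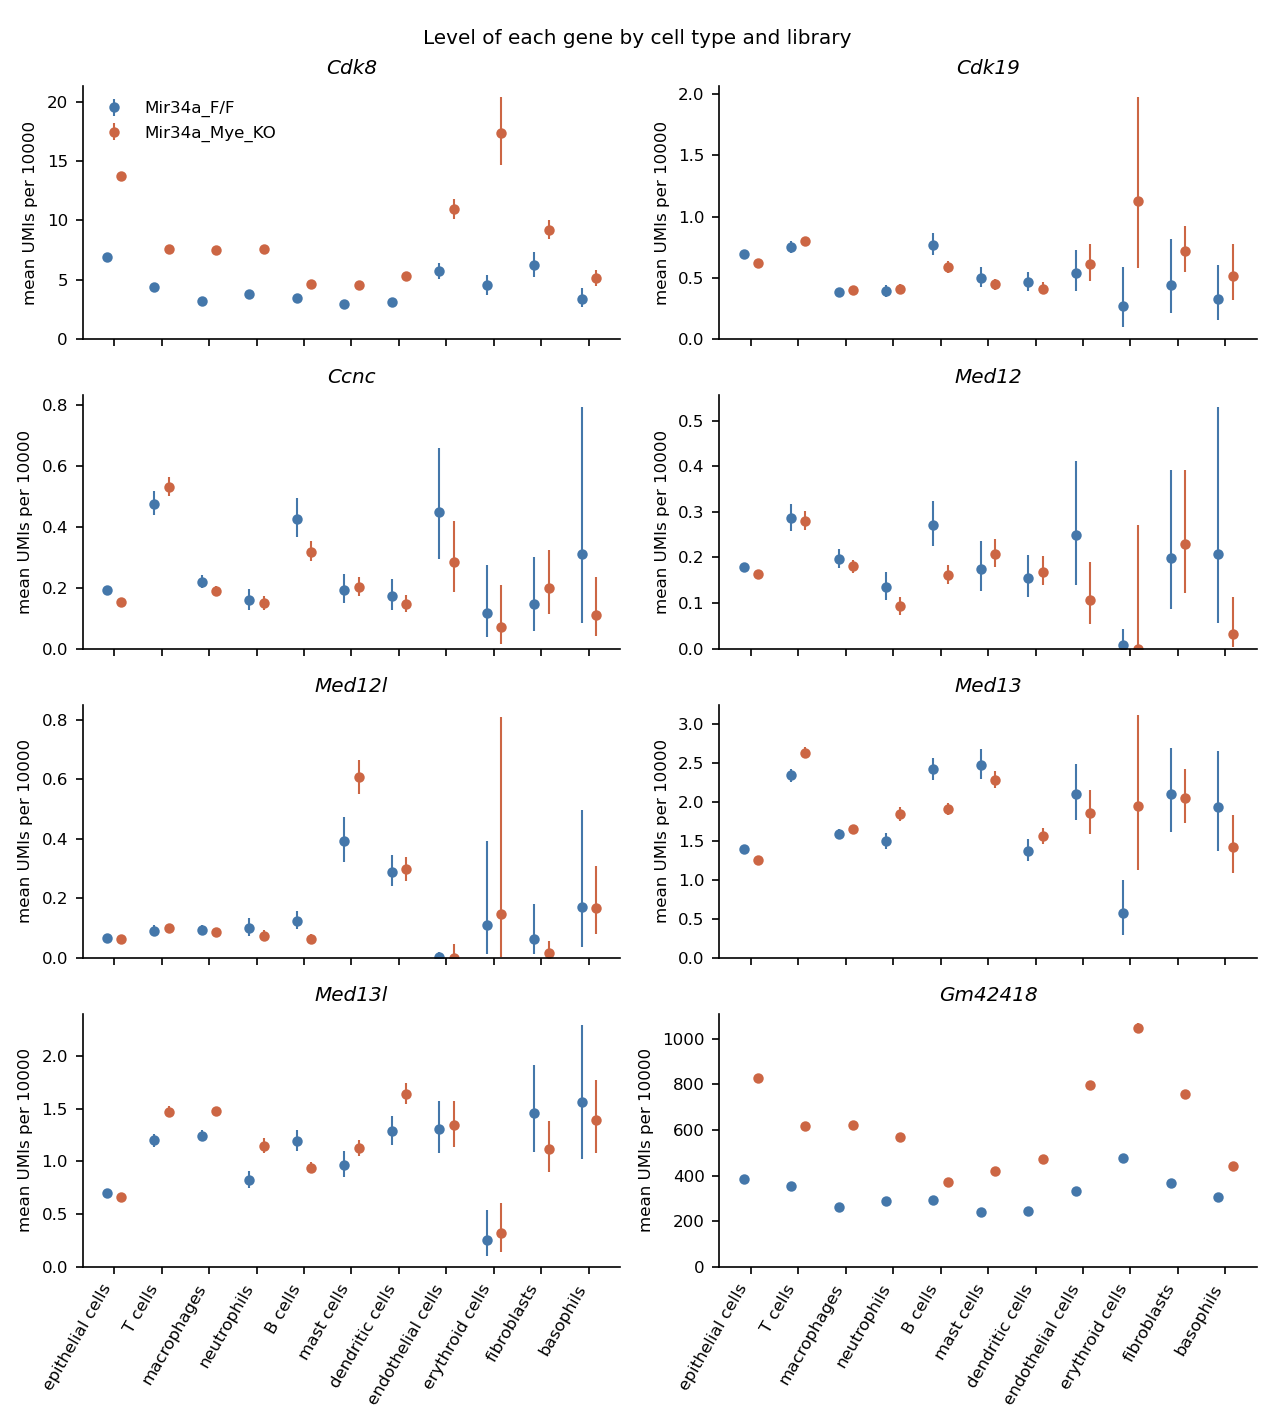
Level of each gene (mean over cells of UMIs per 10000 UMIs) in the 11 cell types, with the F/F-labelled library in blue and the KO-labelled library in orange; bars are 95% Poisson intervals of the summed UMIs, and each axis starts at 0. *Cdk8* and *Gm42418* sit higher in the KO-labelled library in every cell type, up to 17.4 and 1047, while the 6 partners do not.

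Between the libraries, the log2 ratio of means (KO-labelled over F/F-labelled) of *Cdk8* was above 0 in 11 of 11 cell types, with a median of 0.78. It ranged from 0.40 in B cells to 1.94 in erythroid cells. In macrophages, a site of the intended deletion, it was 1.24 (1.19 to 1.28), and in epithelial cells, which are not, 0.98 (0.96 to 0.99). *Gm42418* had a log2 ratio of 1.24 in macrophages as well (1.24 to 1.25) and 1.10 in epithelial cells. Over the 11 cell types *Gm42418* ranged from 0.34 in B cells to 1.26 in endothelial cells, with a median of 0.98.

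*Cdk8* was at least 2-fold higher in 2 cell types, macrophages and erythroid cells. These calls depended on the measure, since the log2 ratio of summed UMIs, which weights deep cells more, was 0.97 in macrophages, 1.22 in epithelial cells and 1.23 in erythroid cells, so that epithelial cells passed 2-fold and macrophages did not. Of 14412 genes with at least 50 UMIs in macrophages, 1.02% were at least 2-fold higher in the KO-labelled library and 2.68% at least 2-fold lower, and *Gm42418* and *Cdk8* ranked 71 and 73 from the highest. In erythroid cells 5.89% of 611 genes were at least 2-fold higher. *Gm42418* was at least 2-fold higher in 5 cell types, epithelial cells, macrophages, endothelial cells, erythroid cells and fibroblasts, and from summed UMIs the values in erythroid cells, 0.79, and fibroblasts, 0.99, were under 2-fold. The share of genes at least 2-fold higher was 1.17% in epithelial cells, 2.03% in endothelial cells and 4.97% in fibroblasts. These values were used to choose both genes and support nothing further.

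The 6 partners were at least 2-fold higher or lower in 0 of the cell types in which they had 50 UMIs. From summed UMIs *Cdk19* passed in fibroblasts, with a log2 ratio of 1.43 from 10 and 60 UMIs, and *Med12l* in B cells, with -1.17 from 68 and 93 UMIs. Over the cell types in which at least 1 partner had 50 UMIs, the share of all tested genes at least 2-fold higher was 1.17% in epithelial cells, 0.665% in T cells, 1.03% in neutrophils, 2.07% in B cells, 1.17% in mast cells, 1.6% in dendritic cells and 6.5% in basophils, beside those given for *Cdk8* and *Gm42418*. The share at least 2-fold lower was 3.55% in epithelial cells, 3.1% in T cells, 3.8% in neutrophils, 10.1% in B cells, 4.48% in mast cells, 1.82% in dendritic cells, 5.32% in endothelial cells, 4.86% in fibroblasts and 4.35% in basophils. In erythroid cells 4.58% of genes were at least 2-fold lower, and 0 of the 6 partners reached 50 UMIs there. With shares this small, 0 calls among 6 genes is near the background. In macrophages, their log2 ratios were 0.053 for *Cdk19*, -0.21 for *Ccnc*, -0.13 for *Med12*, -0.13 for *Med12l*, 0.060 for *Med13* and 0.25 for *Med13l*, with a median of -0.037. The median of all 14412 genes was -0.077. Of the 6 intervals, that of *Med13l* lay above 0, that of *Ccnc* below 0 and the other 4 spanned 0, where 17.1% of all genes had an interval above 0 and 31.5% below. After thinning to 1000 UMIs *Ccnc* turned to 0.25. The place of *Med13* near 0 also depended on the measure. It was at 0.29 from summed UMIs and 0.17 after thinning. With totals that leave out ribosomal RNA-like, mitochondrial and immunoglobulin genes it was at 0.17, and in cells with at least 500 genes and under 10% mitochondrial UMIs at 0.0051.

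Across cell types, *Cdk19* had an interval above 0 in 0 of 9 cell types tested and below 0 in 2, epithelial cells and B cells. *Ccnc* had 1 above 0 and 3 below of 8, *Med12* 0 and 3 of 7, and *Med12l* 1 and 1 of 7. *Med13* had 3 above 0 and 2 below of 10, and *Med13l* 5 and 2 of 10. In epithelial cells the calls of *Cdk19* and *Med12* depended on the measure, with -0.17 and -0.14 from means but 0.017 and -0.016 from summed UMIs. *Ccnc*, *Med13* and *Med13l* stayed lower there from summed UMIs, at -0.26, -0.26 and -0.15. Of all genes tested, the shares with an interval above and below 0 were 8.04% and 60.2% in epithelial cells, 17.7% and 35.8% in T cells, 15.5% and 31.0% in neutrophils, 9.78% and 50.2% in B cells, 12.6% and 27.2% in mast cells and 16.2% and 16.0% in dendritic cells. They were 8.51% and 22.9% in endothelial cells, 12.4% and 17.6% in fibroblasts and 15.2% and 15.9% in basophils. Intervals off 0 were thus common among all genes. For all 6 partners the value in B cells was below 0, from -0.95 for *Med12l* to -0.34 for *Med13*, with a median of -0.41, near the median of all genes there, -0.34. *Cdk8* was at 0.40. In B cells the depth of the libraries differed most, and 10.1% of 12121 genes were at least 2-fold lower there.

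**Figure D2:**
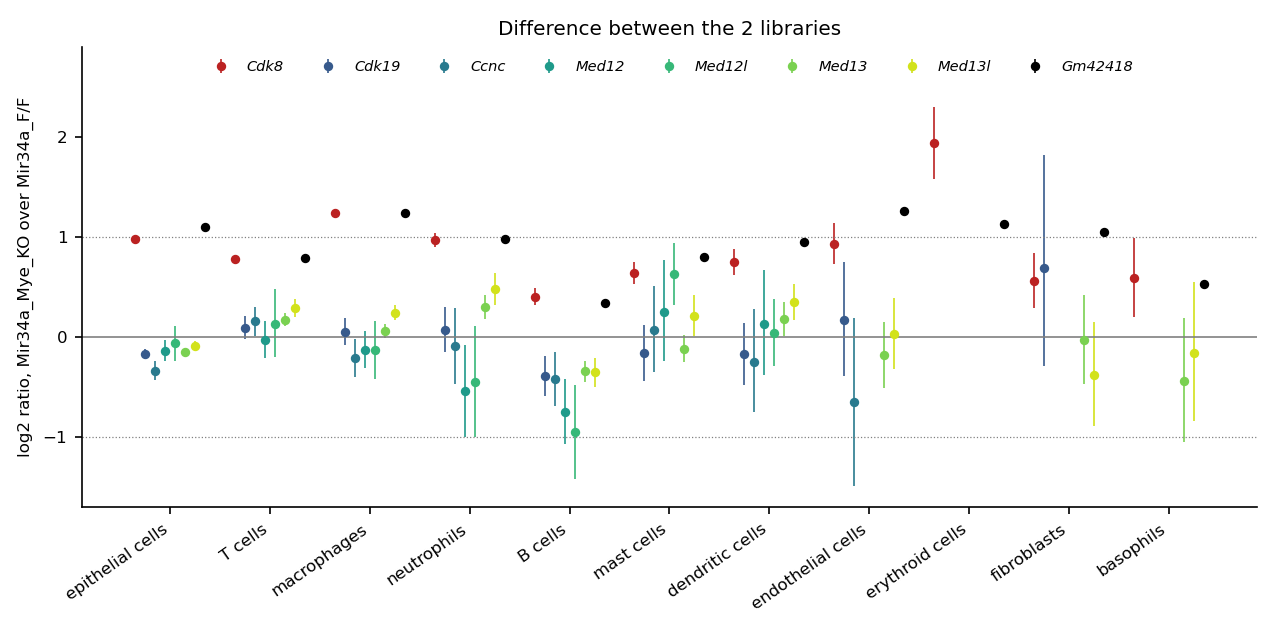
Log2 ratio of the mean level, KO-labelled over F/F-labelled library, of each gene in each cell type where it had at least 50 UMIs; bars are 95% counting intervals and dotted lines mark 2-fold. *Cdk8* (red) and *Gm42418* (black) lie above 0 in 11 of 11 cell types, while the partners lie on both sides of 0 and within 2-fold.

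Of the core Mediator subunits, which carry the module, 0 of 26 were at least 2-fold higher in macrophages and 1 was lower, near the shares of all genes there, 1.02% and 2.68%. Their median was -0.18, beside -0.077 for all genes. In epithelial cells 0 of 26 passed 2-fold, and their median was -0.25, beside -0.23 for all genes. Their interval lay below 0 for 13 of 26 in macrophages and 24 of 26 in epithelial cells, beside 31.5% and 60.2% of all genes. Of 12 other kinases and cyclins of transcription, such as *Cdk7* and *Cdk9*, 0 passed 2-fold in macrophages, with a median of 0.024. Of 9 genes often seen beside *Gm42418* in such tables, 2 were at least 2-fold higher in macrophages, *Lars2*, encoding the mitochondrial leucyl-tRNA synthetase, at 1.36, and *Camk1d*, encoding a calmodulin-dependent kinase, at 1.16, and the median was 0.55. This list was chosen with earlier results of these data known, so its counts are a description only. It was not higher in every cell type. Its median was -0.17 in B cells, with 2 intervals above 0 and 5 below, 0.052 in mast cells, with 3 above and 4 below, and -0.0019 in basophils, beside -0.34, -0.13 and -0.0021 for all genes.

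The pattern over cell types was then compared by the Pearson correlation of log2 levels with that of *Cdk8* over the 22 groups formed by 11 cell types and 2 libraries. The groups of a library share its depth, mitochondrial share and preparation, so the correlations are a description. Among 9345 genes with a mean level of at least 0.1, the median r with *Cdk8* was -0.045, the middle 90% of genes ran from -0.50 to 0.46, and 0.15% reached 0.8. *Lars2* was first, with an r of 0.97, followed by *Camk1d* at 0.95, *Gm42418* at 0.94, the noncoding RNA *Gm48099* at 0.90 and *Gphn*, which encodes the synaptic scaffold gephyrin, at 0.89. With *Gm42418*, *Lars2* at 0.96, the antisense RNA *Gm15564* at 0.95, *Camk1d* at 0.95, *Cdk8* at 0.94 and *Gm48099* at 0.91 came first, so that *Cdk8* ranked 4 from the highest. The levels of *Cdk8* and *Gm42418* over these groups were used to choose both genes. Their r with each other and these ranks therefore support nothing further.

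None of the partners reached 0.8, near the background, since 0.15% of all ranked genes did. *Cdk19* was nearest, with an r of 0.53 and rank 218, which is above the range of the middle 90% of genes. This place was not stable, since *Cdk19* was at 0.35 after thinning to 1000 UMIs and at 0.19 over the cell types with at least 500 cells in each library, where *Gm42418* was at 0.92 and 0.95. *Med13* had an r of -0.0068, or -0.45 over the cell types with at least 500 cells, *Ccnc* -0.27, *Med13l* -0.30, *Med12* -0.32 and *Med12l* -0.47, which was rank 8739. Among themselves, some partners were more alike, with an r of 0.74 between *Ccnc* and *Med12*, 0.69 between *Med12* and *Med13l* and 0.57 between *Med13* and *Med13l*. These levels are low in the smallest cell types, and *Med12* in erythroid cells rested on 1 and 0 UMIs.

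Of the lists, 0 of 23 core Mediator genes, 0 of 12 transcription kinases and cyclins, 0 of 13 RNA polymerase II subunits and 0 of 4 nuclear long RNAs, such as *Malat1*, reached an r of 0.8 with *Cdk8*, and their medians were -0.10, -0.15, -0.24 and -0.012. With 0.15% of 9345 genes at 0.8 or above, these counts of 0 are near the background. Of the genes often seen beside *Gm42418*, 4 of 9 did, with a median of 0.77. That list was made up of such genes with earlier results of these data known, so its count is a description only. Of the 13 mitochondrially encoded mRNAs 6 did, with a median of 0.79. Within the 11 cell types of 1 library, 2 of the 13 reached 0.8 in the F/F-labelled and 0 in the KO-labelled library, with medians of 0.74 and 0.73. The mitochondrial share and *Cdk8* were both higher in the KO-labelled library in every cell type.

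**Figure D3:**
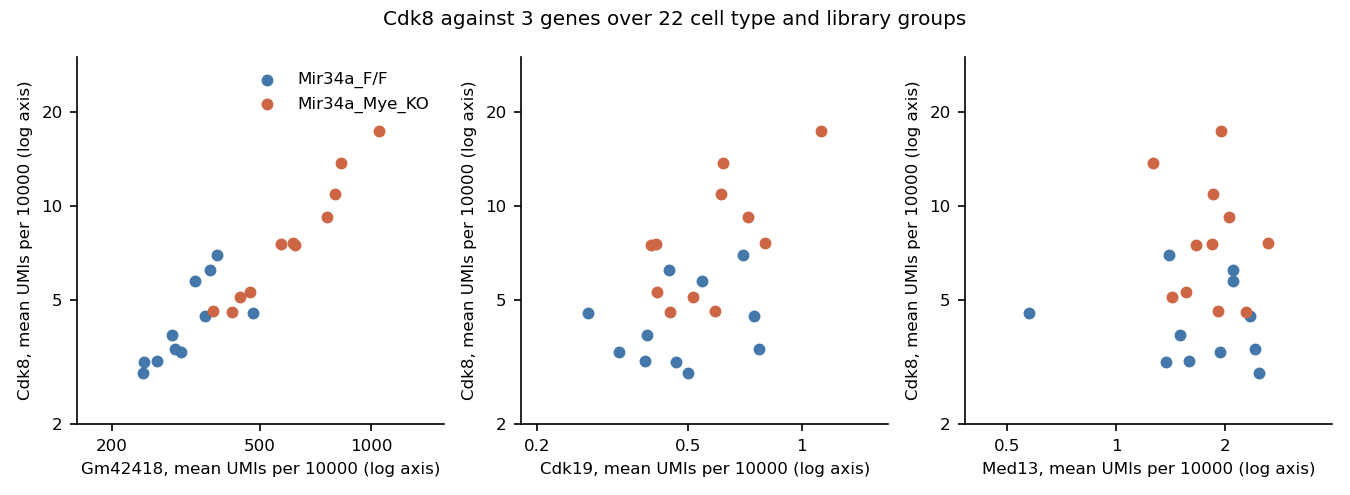
Level of *Cdk8* against *Gm42418*, *Cdk19* and *Med13* (mean UMIs per 10000, log axes), with 1 point for each of the 11 cell types of the F/F-labelled (blue) and KO-labelled (orange) library. The points lie along 1 line for *Gm42418* (r of 0.94), are looser for *Cdk19* (0.53) and show no line for *Med13* (-0.0068). The levels of *Cdk8* and *Gm42418* were used to choose both genes, so their line is a description only.

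Within the 11 cell types of 1 library, the r between *Cdk8* and *Gm42418* was 0.74 in the F/F-labelled and 0.98 in the KO-labelled library. In the F/F-labelled library, the median of the 13 mitochondrially encoded mRNAs was also 0.74. The core Mediator gene *Med25*, the highest of its list there, was at 0.76. In the KO-labelled library that median was 0.73 and *Med25* was at 0.38. The share of all genes at such values within 1 library was not computed. *Cdk19* had 0.24 and 0.66 with *Cdk8*, and the other partners were below 0 in both. The 11 log2 ratios between the libraries gave another order, with an r with *Cdk8* of 0.87 for *Med13*, 0.70 for *Cdk19* and 0.63 for *Gm42418*. In this measure 2 partners were thus more like *Cdk8* than *Gm42418* was. Erythroid cells decided it, where *Med13* and *Cdk19* had 29 and 18 UMIs over both libraries. Over the other 10 cell types, an alternative chosen after seeing the data, r was 0.80 for *Gm42418*, 0.59 for *Med13l*, 0.49 for *Med13* and -0.091 for *Cdk19*.

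*Cdk8* was also expressed relative to *Gm42418*, as a description only, since the levels of both genes over these groups were used to choose them. Per 1000 *Gm42418* UMIs, summed over the cells of a group, there were 10.8 to 19.2 *Cdk8* UMIs in the 22 groups, a 1.77-fold range, with a median of 13.3. Macrophages held 12.4 in the F/F-labelled and 11.9 in the KO-labelled library, T cells 12.9 and 12.7, B cells 13.2 and 13.5, and epithelial cells 17.2 and 17.6. Between the libraries this ratio was within 0.50 of 0 on the log2 scale in every cell type, with a median of -0.023, an interval above 0 in 3 cell types, below in 4 and spanning 0 in 4. In the same measure *Camk1d* spanned a 1.65-fold and *Lars2* a 2.12-fold range. The ranges of partners were 5.20-fold for *Cdk19*, 6.48-fold for *Ccnc*, 9.23-fold for *Med13* and 11.6-fold for *Med13l*, which include groups with few UMIs. The lowest values of *Cdk19*, *Med13* and *Med13l* were in erythroid cells of the F/F-labelled library, from 6, 12 and 7 UMIs, which widens their ranges. *Med12* and *Med12l* were not taken in this measure. Since *Gm42418* was itself higher in the KO-labelled library in every cell type, a gene that did not differ between the libraries falls in this measure. Shares of all genes were not computed for it.

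**Figure D4:**
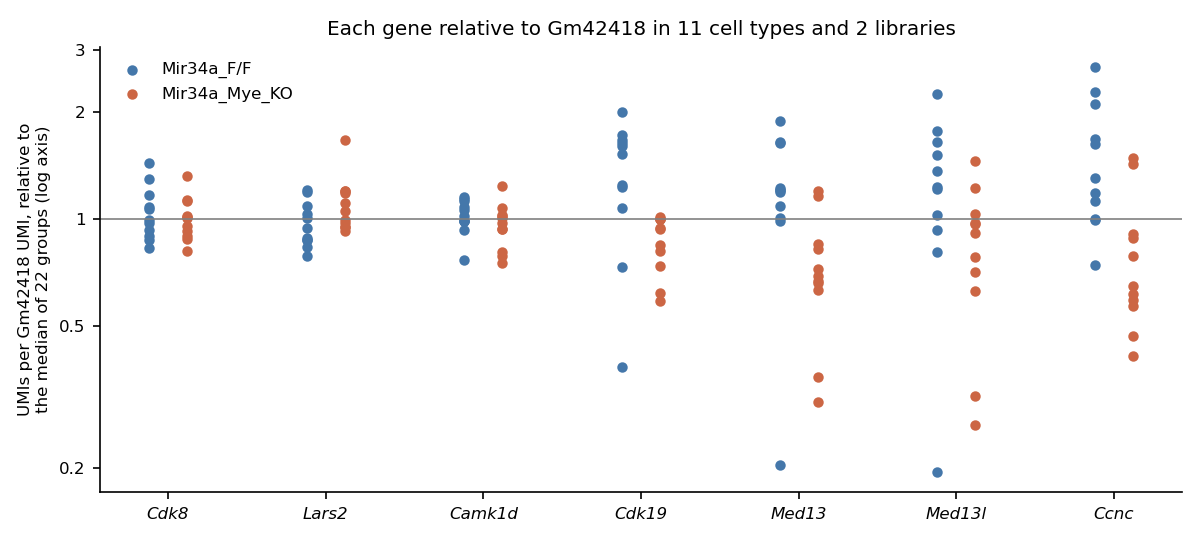
UMIs of 7 genes per *Gm42418* UMI in 11 cell types of each library, divided by the median of the 22 groups (log axis). Points of *Cdk8*, *Lars2* and *Camk1d* lie close to 1 (ranges of 1.77-, 2.12- and 1.65-fold) and points of the partners shown scatter further, in part from groups with few UMIs. *Cdk19* and *Ccnc* had an interval below 0 (KO-labelled over F/F-labelled) in 8 of 11 cell types, *Med13l* in 9 and *Med13* in 10. *Gm42418*, the divisor, was itself higher in the KO-labelled library in 11 of 11, so a gene that did not differ falls in this measure. The share of all genes was not computed.

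The same question was put to cells within a cell type. Cells of each cell type and library were ordered by *Gm42418* UMIs per 10000 and divided into quintiles, and levels were given per 10000 UMIs other than *Gm42418*. In macrophages of the F/F-labelled library, *Cdk8* was at 1.35, 2.01, 2.57, 3.77 and 6.31 from the lowest to the highest quintile. In the KO-labelled library *Cdk8* was at 2.37, 4.05, 6.19, 9.40 and 17.8. The log2 ratio of the highest to the lowest quintile was 2.23 (2.10 to 2.35) and 2.91 (2.83 to 2.98). Of the genes with enough UMIs, 8.58% and 12.1% were at least 2-fold higher in the highest quintile, and *Cdk8* ranked 23 of 10236 and 6 of 11155.

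The partners differed less over the same cells. *Cdk19* went from 0.296 to 0.413 in the F/F-labelled library and from 0.340 to 0.466 in the KO-labelled library, and *Med13* from 1.15 to 1.75 and from 1.54 to 1.93. *Med13l* had log2 ratios of 0.84 and 0.54, and the intervals of *Ccnc*, *Med12* and *Med12l* spanned 0 in both libraries. The 6 partners summed gave 0.61 (0.48 to 0.73) and 0.36 (0.25 to 0.47), so they were higher in the highest quintile beyond counting error, though within 2-fold. The core Mediator genes summed gave 0.039 and 0.10. Over all genes tested, the median was 0.19 and 0.15.

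Cells with a high share of *Gm42418* also differed in other ways. From the lowest to the highest quintile of macrophages, median UMIs per cell went from 14784 to 3203 in the F/F-labelled and from 24268 to 2266.5 in the KO-labelled library. The 5 macrophage markers summed went from 56.2 to 26.2 and from 65.2 to 26.6 per 10000, the 5 epithelial markers from 13.6 to 29.0 and from 8.42 to 24.4, and the mitochondrial share from 1.82% to 3.13% and from 3.18% to 4.63%. Their part in the result was not tested. In macrophages of 3000 to 9000 UMIs, a window chosen after seeing the data, the log2 ratio of *Cdk8* was 2.26 (2.02 to 2.51) over 960 cells and 2.06 (1.89 to 2.24) over 544 cells. There the partners summed were at 0.42 and -0.24, so that their direction in the KO-labelled library turned, and median UMIs still went from 6846 to 4783 and from 6540 to 4568.

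**Figure D5:**
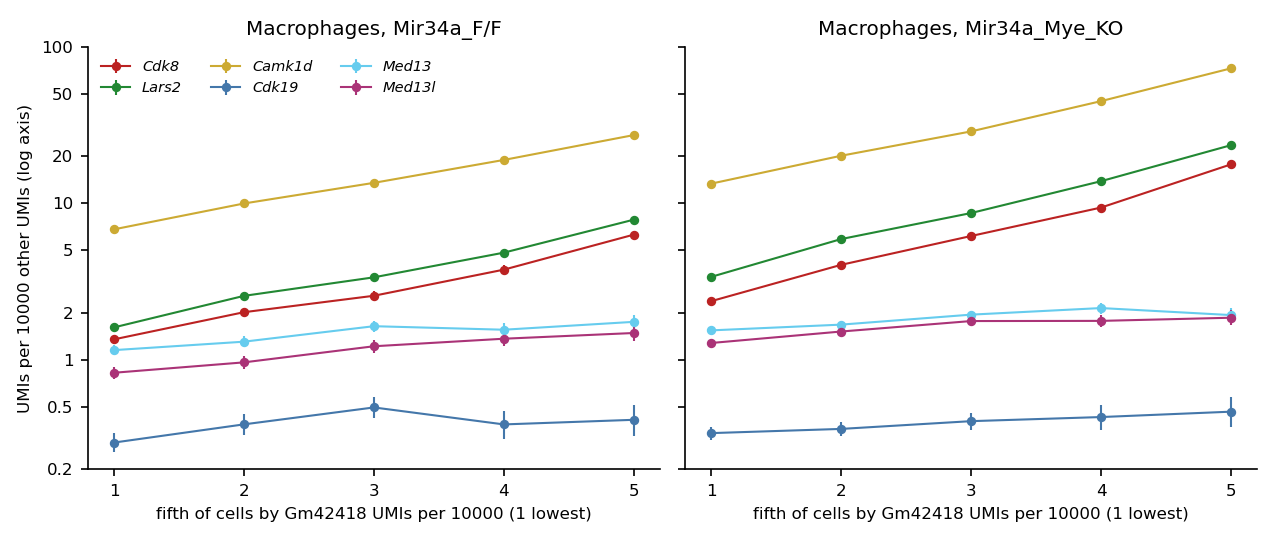
Levels (UMIs per 10000 UMIs other than *Gm42418*, log axis) of 6 genes in macrophages by quintile of *Gm42418* share, 1 being the lowest, for the F/F-labelled (left) and KO-labelled (right) library; bars are 95% Poisson intervals. *Cdk8* climbs from 1.35 to 6.31 and from 2.37 to 17.8, beside *Lars2* and *Camk1d*, while *Cdk19*, *Med13* and *Med13l* stay within 2-fold.

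The share of all tested genes at least 2-fold higher in the highest quintile, in the F/F- and then the KO-labelled library, was 7.07% and 5.24% in epithelial cells, 1.85% and 3.98% in T cells, 5.7% and 4.61% in neutrophils, 53.1% and 56.4% in B cells, 17.9% and 13.4% in mast cells and 7.03% and 7.02% in dendritic cells. In the cell types with fewest cells it was 5.94% and 4.54% in endothelial cells, 14.2% and 16.3% in erythroid cells, 11.4% and 5.82% in fibroblasts and 16.7% and 17.1% in basophils. *Cdk8* was at least 2-fold higher in the highest *Gm42418* quintile in 21 of the 21 groups of cell type and library in which it had enough UMIs, with log2 ratios of 1.61 in T cells of the F/F-labelled library to 3.22 in B cells of the KO-labelled library. The same held for *Lars2* in 21 of 21 groups, *Camk1d* in 22 of 22 and *Cmss1* in 22 of 22, while *Gm26917*, next to *Gm42418* on chromosome 17, passed in 17 of 22, with a lowest value of -0.31, and *Malat1* in 1 of 22. The partners summed passed 2-fold in 2 of 19 groups, both of them B cells, with a median of 0.32. Their interval lay above 0 in 12 of the 19 groups and below 0 in 2, where 31.7% of all gene and group pairs were above 0 and 15.7% below. Those shares are for single genes, and a sum of 6 genes has a narrower interval than each of them. Taken singly, the interval was above 0 in 8 of 14 groups for *Cdk19*, 4 of 11 for *Ccnc* and 4 of 9 for *Med12*. It was above 0 in 1 of 8 for *Med12l*, 12 of 16 for *Med13* and 10 of 15 for *Med13l*. In the same order it was below 0 in 1, 2, 0, 1, 2 and 1. Outside B cells, *Med13* passed 2-fold in mast cells of the F/F-labelled library (1.34), and *Med13l* (1.28) and *Med12l* (1.18) in mast cells of the KO-labelled library. In the other direction, *Med12l* was at -1.22 in dendritic cells of the F/F-labelled library and *Med13l* at -2.38 in endothelial cells of the KO-labelled library, where 5.1% and 20% of genes were at least 2-fold lower. In B cells, where most genes tested passed 2-fold, the 5 B cell markers summed, which include the plasma cell gene *Jchain*, went from 442 to 15.3 and from 554 to 56.0 per 10000 from the lowest to the highest quintile, and their part in the result was not tested. *Cdk19* differed there as much as *Cdk8*, with 2.81 (2.26 to 3.36) in the F/F-labelled and 3.49 (3.11 to 3.87) in the KO-labelled library, beside 2.75 (2.53 to 2.98) and 3.22 (3.09 to 3.35) for *Cdk8*, and these intervals overlapped. In epithelial cells *Cdk8* had 2.89 and 2.30 where the partners summed had -0.0039 and -0.16. The core Mediator genes summed passed 2-fold in 2 of 21 groups, with a median of 0.10 and an interval above 0 in 7 groups and below 0 in 1.

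Levels per 1000 *Gm42418* UMIs were also taken by quintile, where the divisor is the transcript by which the cells were ordered, so that a lower ratio in the highest quintile follows in part from the ordering. *Cdk8* was at 15.6 in the lowest and 9.73 in the highest quintile of macrophages in the F/F-labelled library and at 12.3 and 10.7 in the KO-labelled library. *Cdk19* was at 3.42 and 0.636, and at 1.76 and 0.279. Over the 22 groups, the highest quintile held a median of 0.770 times the lowest for *Cdk8*, with a range of 0.501 to 1.61 and 18 groups below 1, 0.147 times for *Cdk19* and 0.203 times for *Med13*.

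Finally, each cell was thinned to 1000 UMIs to put cells on 1 depth, leaving out 840 and 181 cells of the F/F- and KO-labelled libraries with fewer. Over 2193 and 2595 thinned macrophages the r of *Cdk8* with *Gm42418* was 0.31 and 0.44, and over T cells 0.20 and 0.39. The partners had an r with *Cdk8* between -0.042 and 0.071 in macrophages and between -0.026 and 0.028 in T cells. In B cells, over 931 and 922 thinned cells, the r with *Cdk8* reached 0.11 and 0.12 for *Cdk19* and was -0.018 and 0.13 for *Med13*, beside 0.27 and 0.48 for *Gm42418*, and *Cdk19* had 0.079 and 0.23 with *Gm42418*. The partners had means of 0.00694 to 0.173 UMIs per thinned macrophage in the KO-labelled library, beside 0.734 for *Cdk8*, and the part of these low counts in the correlations was not tested. *Lars2* had an r with *Cdk8* of 0.22 and 0.31 in macrophages and *Camk1d* of 0.29 and 0.39.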

How the data were processed

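Single-cell libraries of CACs, 1 per genotype, were made with 10x Genomics 3′ chemistry. According to the methods and processing notes, counting used Cell Ranger 7.2.0 and the mm10 reference, cells were filtered on mRNAs and mitochondrial share, and doublets were removed with Scrublet. The authors deposited values on a natural log scale, ln(1 + x), x being UMIs scaled to 10000 in each cell, and a cell type annotation, which was used as given. UMIs were recovered by undoing the log and dividing by the smallest value in each cell (100% of values came out whole, with a largest deviation of 1.5e-10). Levels, ratios, quintiles and correlations (pseudocount 0.05) were computed with Python 3.11.15, numpy 2.4.6, pandas 2.3.3 and scipy 1.17.1, and transcripts were aligned with BLAST+ 2.17.0. Intervals were exact Poisson intervals or, for ratios, exact conditional binomial intervals of summed UMIs. For levels averaged over cells and for ratios of means the interval was shifted onto that value, so its width is that of summed UMIs. The interval functions were tried on simulated gene sums, without cells and without this shift. The simulation therefore did not check the intervals around means and ratios of means, which may be too narrow. Cells share mice, so the spread between cells does not enter these intervals.

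A gene with at least 50 UMIs over the groups compared was tested for a 2-fold difference, and no p-value was computed. The members, lists and markers were chosen with earlier results of these data known. Besides the 8 members, the text names the 5 genes most like *Cdk8* and the 5 most like *Gm42418*, genes with sequence matches and listed genes. Alternatives were other totals, thinning to 1000 UMIs, stricter cells (at least 500 genes and under 10% mitochondrial UMIs), summed UMIs, other correlations and subsets of groups. The genome sequence was not used here.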

Additional observations from a re-analysis of the deposited data

Results flagged for a closer look

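The log2 ratio between the libraries (KO-labelled over F/F-labelled) of 4 partners had opposite signs in different cell types, with both counting intervals off 0, and these differences between cell types were not tested. The share of all genes with such a pair was not counted, so this count is not read as a trait of the partners. Of all genes, 17.7% were above 0 in T cells, 12.6% in mast cells and 15.5% in neutrophils, and 50.2% were below 0 in B cells. *Ccnc* was at 0.16 in T cells and -0.42 in B cells. *Med12l* was at 0.63 in mast cells and -0.95 in B cells, *Med13* at 0.30 in neutrophils and -0.34 in B cells, and *Med13l* at 0.48 in neutrophils and -0.35 in B cells. The median of all genes in B cells was -0.34, so *Med13*, *Med13l* and, less closely, *Ccnc* were near a typical gene there. B cells were on 1 side of each pair and had the largest difference in depth between the libraries, 5.69-fold, and its part in these values was not tested.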

How the results depend on the processing

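No paired analysis was possible because each genotype was 1 library and the results come from no test. Of 137 alternative values, 68 stayed within the error or tolerance set for the value reported, 57 moved by more and 12 changed sign. In macrophages, the log2 ratio between libraries of *Cdk8* was 1.39 with totals that leave out ribosomal RNA-like, mitochondrial and immunoglobulin genes, 1.18 after thinning to 1000 UMIs and 0.97 from summed UMIs, which is under 2-fold, while in epithelial cells summed UMIs gave 1.22 in place of 0.98. That of *Gm42418* was 1.38 with those totals, 1.27 with stricter cells and 1.02 from summed UMIs. The median of the partners became 0.18 after thinning, where *Ccnc* turned to 0.25.

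The r of *Gm42418* with *Cdk8* was 0.74 within the F/F-labelled library, 0.63 over log2 ratios and 0.80 over those without erythroid cells. The median r of the partners, -0.29, was -0.12 by Spearman, -0.075 within the F/F-labelled library and -0.15 with the other totals, and turned to 0.45 over log2 ratios and 0.21 without erythroid cells. Over log2 ratios the r turned for *Med12* (0.14), *Med12l* (0.41) and *Med13l* (0.49), and without erythroid cells it did for *Cdk19* (-0.091), *Ccnc* (0.075), *Med12* (0.16), *Med12l* (0.25) and *Med13l* (0.59).

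Over quintiles of macrophages, *Cdk8* had 2.62 and 2.76 after thinning in the F/F- and KO-labelled libraries, 2.99 in the KO-labelled library with the other totals and 2.06 there at 3000 to 9000 UMIs. The partners summed had 0.89 and 0.18 after thinning, and 0.42 and -0.24 at 3000 to 9000 UMIs. Genes at least 2-fold higher and lower in macrophages numbered 46 and 97 at a minimum of 200 UMIs, against 147 and 386. The cause of these shifts was not tested. Bins of cells without *Gm42418* gave no value, since it was counted in 100% of macrophages of both libraries. *Med12* and *Med12l* had 0 UMIs in 1 of the 22 groups each.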

Other observations

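Among all genes, the first in the quintile comparison of macrophages in the KO-labelled library were *Otoa*, *Gm45740*, *AY036118*, *Gm15564*, *D130043K22Rik* and *Cdk8*, which were named after their values were seen. *AY036118*, which lies on the other strand within *Gm42418*, did not keep a fixed ratio to it between the libraries. It had 48.5 to 131 UMIs per 1000 *Gm42418* UMIs over the 22 groups, and this ratio was lower in the KO-labelled library in 11 of 11 cell types, with a median log2 difference of -0.54. For *Lars2* the same measure was higher in 7 and lower in 1 of the 11 cell types beyond counting error, and for *Camk1d* higher in 1 and lower in 6. The divisor was itself higher in the KO-labelled library in every cell type, so these counts follow in part from it, and the share of all genes was not computed.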
